A study of Mus musculus with 16 samples.

Results

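Dendritic cells (DCs) sense and take up antigen through C-type lectin receptors. Expression of 10 such genes was followed in mouse DC progenitors: *Clec4a1*, *Clec4a2*, *Clec4a3*, *Clec4a4*, *Clec4n*, *Clec7a*, *Clec9a*, *Clec10a*, *Clec12a* and *Ly75*, which encodes DEC-205. The genes were chosen by name, with earlier results of these data known, and are 10 of the 19938 genes measured. Shares of all genes set beside their counts are thus no test of an excess. Each of the 10 had 1 probe set that maps to its symbol alone. No filter on signal was used, so all 10 entered every test.

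Monocyte-DC progenitors (MDPs) and common DC progenitors (CDPs) were from the bone marrow of Ik L/L mice, which carry a hypomorphic allele of Ikaros in all cells, or of WT mice, at 6 to 9 weeks of age. The sorted CD45.2+ progenitors were kept for 24 h with CD45.1+ WT bone marrow cells and Flt3L, with the γ-secretase inhibitor GSI (Compound E, 5 µM), which blocks Notch cleavage, or with DMSO as vehicle. CD45.2+ cells were then sorted again and their RNA was amplified and hybridised to 16 Affymetrix Mouse Gene ST arrays. The 8 groups, with 2 arrays each from 2 mice, were Ik L/L CDPs with GSI or DMSO, Ik L/L MDPs with GSI or DMSO, WT CDPs with GSI or DMSO, and WT MDPs with GSI or DMSO. Whether groups share mice is not stated, so arrays pooled over stages or treatments may not be independent. The main tests treat all arrays as independent. MDP and CDP name the cells put into culture, not those recovered. The WT bone marrow cells are in every culture, and were exposed to GSI or DMSO with the progenitors.

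C-type lectins bind sugars or protein ligands outside the cell and carry antigen into it. Some, such as Dectin-1 (*Clec7a*) and Dectin-2 (*Clec4n*), activate the cell through the kinase SYK, while the DCIR receptors of the *Clec4a* family that bear an inhibitory motif recruit phosphatases. In the mouse spleen, DEC-205 and CLEC9A mark cDC1s, which cross-present antigen, whereas DCIR2, the product of *Clec4a4*, marks cDC2s. Antigens coupled to antibodies against DEC-205, CLEC9A or DCIR2 have been used to target these cells.

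The *Clec4a* genes are paralogs that lie beside each other, so their promoters are shown first, from RefSeq on GRCm38.p6. The table used held promoters for 7 of the genes, 9 in all with both starts of *Clec4a3* and of *Clec7a*. Each window runs from 250 bases before to 50 bases after the start. *Clec4a1* and *Clec4a3* are shown because they moved together between stages, and the capitals mark the stretch that aligns between them. *Ly75* is shown because it separated the genotypes, and its capitals mark, from 5′ to 3′, a C/EBP-type motif (TTGCNNAA) and a RUNX core (TGTGGT).
Clec4a1, chr6:122921598-122921897, plus strand: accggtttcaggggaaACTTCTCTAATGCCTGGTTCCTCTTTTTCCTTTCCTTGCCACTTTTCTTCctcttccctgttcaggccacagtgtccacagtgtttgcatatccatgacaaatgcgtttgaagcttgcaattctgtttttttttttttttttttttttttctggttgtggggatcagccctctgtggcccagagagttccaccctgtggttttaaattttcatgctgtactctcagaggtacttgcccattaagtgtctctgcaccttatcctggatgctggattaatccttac
Clec4a3, chr6:122952394-122952693, plus strand, the second start: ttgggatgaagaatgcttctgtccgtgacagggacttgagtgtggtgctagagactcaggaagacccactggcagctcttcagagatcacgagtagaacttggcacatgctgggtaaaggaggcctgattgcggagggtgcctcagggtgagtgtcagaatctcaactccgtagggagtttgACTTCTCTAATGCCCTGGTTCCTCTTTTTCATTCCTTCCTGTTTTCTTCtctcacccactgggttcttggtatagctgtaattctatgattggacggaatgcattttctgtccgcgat
Ly75, chr2:60383224-60383523, minus strand: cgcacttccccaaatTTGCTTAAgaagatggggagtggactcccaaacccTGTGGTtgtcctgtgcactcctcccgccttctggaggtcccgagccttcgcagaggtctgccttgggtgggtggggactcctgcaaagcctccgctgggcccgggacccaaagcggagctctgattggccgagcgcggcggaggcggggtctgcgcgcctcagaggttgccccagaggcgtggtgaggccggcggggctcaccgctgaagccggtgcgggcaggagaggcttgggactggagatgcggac

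The aligned stretch of *Clec4a1* and *Clec4a3* had 45 identical bases in 51 aligned columns (88.2%). It lay 234 to 185 bases before the start of *Clec4a1* and 68 to 20 bases before the second start of *Clec4a3*. Of all alignments between the promoters of different members, it was the longest, and the others held at most 16 identical bases. Within it both genes had a PU.1 core (GAGGAA) on the minus strand, 217 bases before the start of *Clec4a1* and 50 before that of *Clec4a3*. Over both strands, the PU.1 core was found in 5 of the 9 promoters and in 28.3% of all 32851 promoters of the table. The 5 were of 4 genes (*Clec4a1*, *Clec4a3*, *Clec7a*, *Clec12a*), with both windows of *Clec7a* among them. The RUNX core was also found in 5 of the 9 promoters, of 4 genes (*Clec4a1*, *Clec4a3*, *Clec12a*, *Ly75*), against 16.8% of all promoters. The C/EBP-type motif was found in 2 of the 9, those of *Clec12a* and *Ly75*, against 10.8%. The Ikaros core TGGGAA was in none of the 9 windows, against 25.6% of all promoters. These are matches of letters in short windows and no more.

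Signals are RMA values on the log2 scale, and differences are log2 differences. They ran from 2.55 to 13.46 over all probe sets, and array medians from 4.52 to 4.65. Replicate arrays correlated at 0.983 to 0.996. Ikaros itself (*Ikzf1*) averaged lower in Ik L/L than in WT cells by a log2 difference of -0.40 (adjusted p = 0.00666, limma), and it was not called in any 1 of the 4 settings. Of the progenitor genes, *Csf1r* ran from 9.62 to 10.88, *Flt3* from 6.36 to 9.60 and *Kit* from 4.85 to 8.05. *Kit* was lowest in WT CDPs with GSI, at 4.85 and 5.92. The progenitor list averaged 7.41 to 8.10 per array. *Xcr1*, which marks mature cDC1s, stayed between 3.49 and 3.96. *Cadm1*, also on the cDC1 list, ran from 4.82 to 7.65 and was higher in Ik L/L cells over the 4 settings (0.75, adjusted p = 0.003025, limma). The B cell list averaged 4.47 to 4.88 per array and the T and NK cell list 3.87 to 4.24. Other lists moved with the groups. The neutrophil list averaged 8.45 to 9.88 in Ik L/L arrays and 7.37 to 8.80 in WT arrays, and the mature DC list 8.14 to 8.65 in Ik L/L CDPs and 6.10 to 6.51 in WT CDPs. In CDPs, the cDC1 list, which holds *Clec9a*, averaged 6.29 to 6.54 in Ik L/L and 5.88 to 6.31 in WT arrays. The cDC2 list, which holds *Clec4a4* and *Clec10a*, averaged 7.18 to 7.48 in Ik L/L CDPs and 6.46 to 7.0 in WT CDPs. In such bulk samples, fewer cells of a type and less RNA per cell cannot be told apart. The plot of signals by array shows all the values of the 10 genes.

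**Figure D1:**
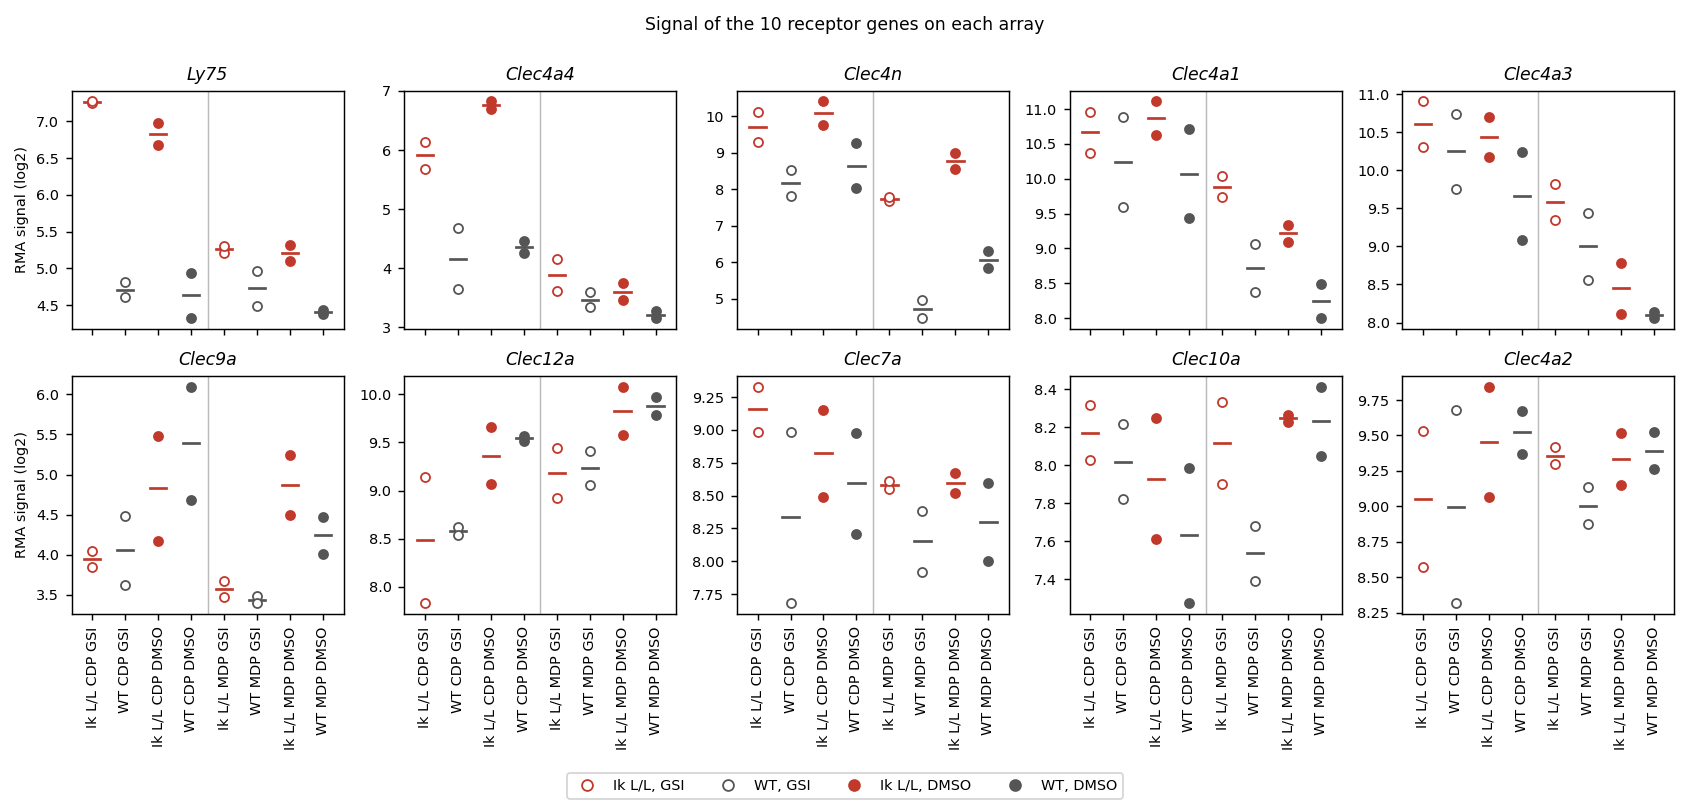
RMA signal (log2) of each of the 10 genes on each of the 16 arrays, with 1 point per array and a bar at the mean of the 2 arrays of a group, CDPs to the left of the grey line and MDPs to the right. The y axes differ between genes. *Ly75* lay at 5.10 or above in all Ik L/L arrays and at 4.96 or below in all WT arrays, and *Clec9a* was lower with GSI than with DMSO in all 4 populations.

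The first question was which receptor genes differ between Ik L/L and WT cells. *Ly75* was the clearest. It had 6.67 and 6.98 in Ik L/L CDPs with DMSO, against 4.94 and 4.33 in WT CDPs. With GSI it had 7.25 and 7.27 in Ik L/L CDPs, against 4.81 and 4.61 in WT CDPs. In the MDPs the gap was smaller. *Ly75* had 5.10 and 5.31 in Ik L/L MDPs with DMSO, against 4.44 and 4.38 in WT MDPs, and with GSI 5.21 and 5.30 in Ik L/L MDPs, against 4.96 and 4.49 in WT MDPs. The 8 Ik L/L arrays (lowest 5.10, median 5.99, highest 7.27) thus did not overlap the 8 WT arrays (lowest 4.33, median 4.55, highest 4.96). Only 0.667% of all genes were higher in Ik L/L arrays in this way. The WT arrays lay near the array medians of 4.52 to 4.65, where differences may be compressed, so folds for *Ly75* are approximate.

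By limma, *Ly75* was higher in Ik L/L CDPs by a log2 difference of 2.19 ± 0.20 with DMSO (SE, 2 arrays each, adjusted p = 5.78e-04) and of 2.55 ± 0.20 with GSI (5.86-fold, adjusted p = 1.56e-04). In MDPs the differences were 0.80 ± 0.20 (adjusted p = 0.436) and 0.53 ± 0.20 (adjusted p = 0.649). With both treatments averaged, a comparison added after the values were seen, the MDP difference was 0.66 ± 0.14 (4 arrays each, adjusted p = 0.0918). The genotype difference in CDPs, over both treatments, exceeded that in MDPs by 1.71 ± 0.20 (adjusted p = 0.00377), and all 16 fits that left out 1 array kept this call. It was 1 of 2 such calls among the 10 genes, where 0.401% of all genes were called in this direction.

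*Clec4a4* (DCIR2) was dim in most groups, with a mean signal at or above that of 44.1% of genes, and stood out in Ik L/L CDPs. It had 6.82 and 6.69 in Ik L/L CDPs with DMSO, against 4.25 and 4.46 in WT CDPs, and with GSI 6.14 and 5.68 in Ik L/L CDPs, against 3.64 and 4.67 in WT CDPs. The MDP arrays all lay between 3.16 and 4.16, below the median of every array, so no fold is given for *Clec4a4*. Under DMSO the MDP arrays had 3.45 and 3.74 in Ik L/L cells, against 3.16 and 3.27 in WT cells. Under GSI they had 3.61 and 4.16 in Ik L/L cells, against 3.34 and 3.59 in WT cells. Within each treatment the genotypes thus did not overlap, but across treatments they did. In such a single setting, 15.2% (DMSO) and 15.7% (GSI) of all genes were higher in Ik L/L MDPs without overlap.

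*Clec4a4* was higher in Ik L/L CDPs by 2.40 ± 0.30 with DMSO (adjusted p = 0.00323) and by 1.75 ± 0.30 with GSI (adjusted p = 0.0150). In MDPs the differences were 0.39 ± 0.30 and 0.42 ± 0.30 (adjusted p = 1.00 and 0.888). The genotype difference in CDPs exceeded that in MDPs by 1.67 ± 0.30 (adjusted p = 0.0409). This call was kept in only 3 of the 16 fits that left out 1 array, those without either array of WT CDPs with GSI or without replicate 2 of Ik L/L CDPs with GSI (adjusted p up to 0.120 in the others). Without replicate 1 of either CDP group with GSI, the difference with GSI was not called either (adjusted p up to 0.120).

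*Clec4n* (Dectin-2), a receptor for fungal mannans that signals through the Fc receptor γ-chain, had its largest genotype difference in MDPs. It had 8.99 and 8.54 in Ik L/L MDPs with DMSO, against 6.31 and 5.83 in WT MDPs, and with GSI 7.66 and 7.79 in Ik L/L MDPs, against 4.47 and 4.98 in WT MDPs. In CDPs it was bright in both genotypes, with 10.40 and 9.76 in Ik L/L CDPs, against 9.26 and 8.02 in WT CDPs, under DMSO, and 10.10 and 9.30 in Ik L/L CDPs, against 8.52 and 7.80 in WT CDPs, under GSI. No setting had overlapping arrays. The difference in MDPs was 3.0 ± 0.43 with GSI (8.0-fold, adjusted p = 0.0312) and 2.70 ± 0.43 with DMSO (6.48-fold, adjusted p = 0.0630). In CDPs it was 1.54 ± 0.43 with GSI (adjusted p = 0.137) and 1.44 ± 0.43 with DMSO (adjusted p = 0.212). The WT MDP arrays with GSI lay near the array medians of 4.52 to 4.65, where differences may be compressed. The 8.0-fold is thus approximate. The call in MDPs with GSI held in 7 of the 16 fits that left out 1 array (adjusted p up to 0.282) and was lost without replicate 1 of WT MDPs with GSI, without any 1 array of Ik L/L MDPs, of WT MDPs with DMSO or of Ik L/L CDPs with DMSO. Over the 4 settings the difference was 2.17 ± 0.22 (4.49-fold, adjusted p = 2.76e-04), a call that all 16 such fits kept. The genotype difference in CDPs was smaller than that in MDPs by 1.36 (log2 difference -1.36 ± 0.43), which was not called (adjusted p = 0.406).

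These 3 genes were higher in Ik L/L cells over the 4 settings together, 3 of 10, where 3.85% of all genes were called higher. Beside *Clec4n*, the differences were 1.52 ± 0.10 for *Ly75* (2.86-fold, adjusted p = 2.42e-05) and 1.24 ± 0.15 for *Clec4a4* (adjusted p = 9.65e-04), and all 16 fits that left out 1 array kept them. In CDPs, 2 of 10 were called with DMSO and 2 with GSI, beside 0.933% and 1.35% of all genes. In MDPs, 0 of 10 were called with DMSO and 1 of 10 with GSI, beside 0.105% and 0.110% of all genes. With DMSO, 2 of 10 had an unadjusted p under 0.05 in MDPs, where 4.41% of all genes did. None of the 10 was called lower, beside 0.246% (CDPs, DMSO), 0.792% (CDPs, GSI), 0 (MDPs, DMSO) and 0.00502% (MDPs, GSI) of all genes, and 2.15% over the 4 settings. With both treatments averaged, 3 of 10 were called higher in CDPs and 1 of 10 in MDPs, beside 3.21% and 0.537% of all genes, with *Clec4n* at 1.49 ± 0.31 in CDPs (adjusted p = 0.0188). The median difference of the 10 over the 4 settings was 0.48, against -0.02 for all genes. Of the 10, 3 (*Ly75*, *Clec4a4* and *Clec4n*) had Ik L/L arrays wholly above the WT arrays in each of the 4 settings, beside 2.44% of all genes. In a single setting, 16.3% and 16.7% of all genes in CDPs and 15.2% and 15.7% in MDPs, with DMSO and with GSI, did so.

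The other 7 genes were not called in any genotype comparison. *Clec4a1*, which like *Clec4a3* belongs to the DCIR family, came closest, with a difference of 0.84 ± 0.24 over the 4 settings (adjusted p = 0.0755), a median of 10.21 in the 8 Ik L/L arrays and of 9.25 in the 8 WT arrays, and overlapping ranges. *Clec4a3* differed by 0.52 ± 0.23 (95% interval 0.00 to 1.03), *Clec7a* by 0.45 ± 0.21 (-0.01 to 0.90) and *Clec10a*, a receptor for galactose and N-acetylgalactosamine, by 0.26 ± 0.14 (-0.05 to 0.57). *Clec4a2*, *Clec9a* and *Clec12a* stayed near 0, at 0.07, 0.02 and -0.09, with intervals from -0.41 to 0.55, from -0.54 to 0.59 and from -0.50 to 0.32. The plot of genotype differences sets the 4 settings side by side.

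**Figure D2:**
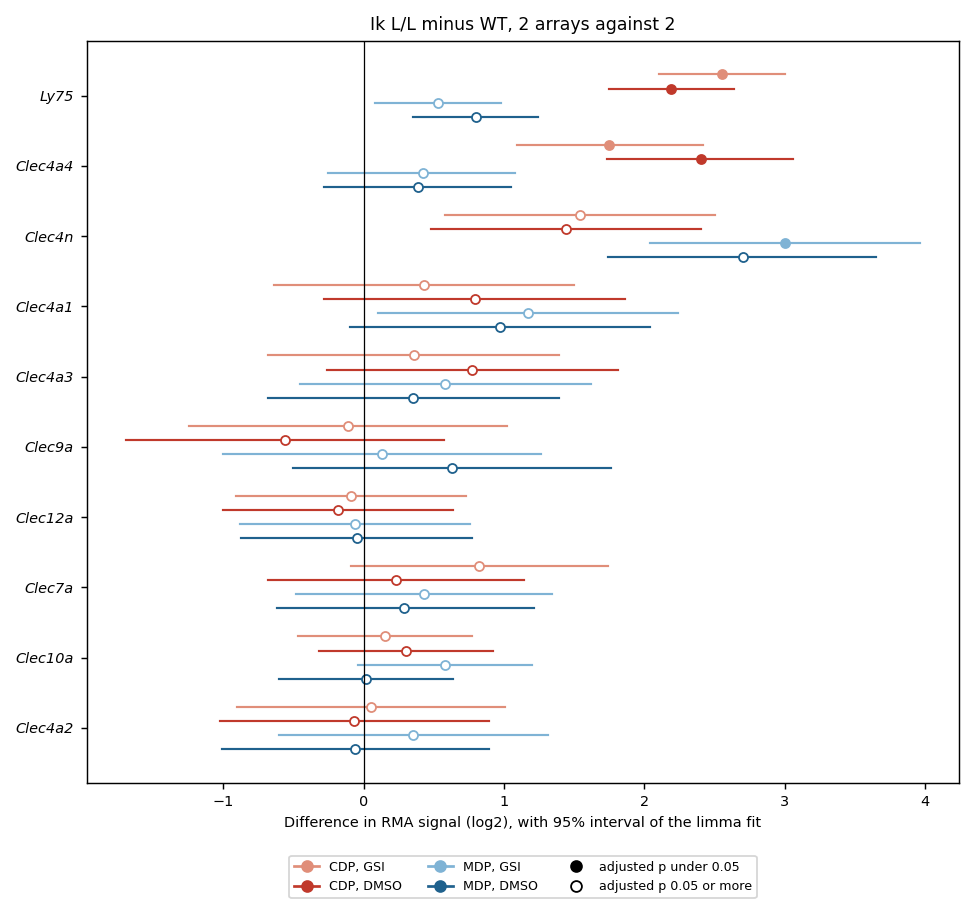
Difference in RMA signal (log2), Ik L/L minus WT, for each gene in each of the 4 settings of 2 arrays against 2, with 95% intervals of the limma fit. Filled points have an adjusted p under 0.05. *Ly75* and *Clec4a4* are filled in CDPs and *Clec4n* in MDPs with GSI.

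Other cell markers moved with genotype as well. For scale, 0.933% of all genes were called higher in Ik L/L CDPs and 0.105% in Ik L/L MDPs with DMSO, and 3.85% over the 4 settings. Of the mature DC list, 9 of 14 genes rose in Ik L/L CDPs with DMSO, among them *Ccr7*, the homing receptor of migrating DCs (10.23 and 10.93 in Ik L/L CDPs, against 6.08 and 6.76 in WT CDPs), and *Fscn1*, an actin bundler of mature DCs (9.11 and 9.56 in Ik L/L CDPs, against 4.94 and 5.19 in WT CDPs). In MDPs with DMSO 1 of 14 rose. The same list had 13 of 14 genes higher in CDPs than in MDPs over the 4 settings, beside 4.72% of all genes. With DMSO this list averaged 8.14 to 8.54 per array in Ik L/L CDPs, against 5.85 to 6.06 in Ik L/L MDPs. In WT cells it averaged 6.13 to 6.51 in CDPs, against 5.51 to 5.55 in MDPs, a smaller gap. Of the neutrophil list, 6 of 16 rose in Ik L/L CDPs with DMSO and 2 of 16 in MDPs, and *Camp*, a granule protein, had 12.22 and 11.37 in Ik L/L CDPs, against 8.06 and 8.07 in WT CDPs. Of the 16, 10 were higher in mean in these CDPs. The granule genes of early myeloid cells were not among them, such as *Elane* with 5.56 ± 0.12 in Ik L/L CDPs, against 7.87 ± 2.45 in WT CDPs and *Mpo* with 7.48 ± 0.42 in Ik L/L CDPs, against 9.76 ± 2.70 in WT CDPs (SD, n = 2 each). Of the basophil and mast cell list, 3 of 12 rose over the 4 settings, led by *Mcpt8*, a basophil protease (2.57, adjusted p = 0.00185), and its list mean was 5.77 and 5.11 in Ik L/L CDPs with DMSO, against 4.90 and 4.35 in WT CDPs, and 5.49 and 4.77 in Ik L/L CDPs with GSI, against 4.22 and 4.18 in WT CDPs. The monocyte and macrophage list averaged 8.58 and 7.74 in Ik L/L CDPs with DMSO, against 8.31 and 7.65 in WT CDPs, and 7.99 and 8.24 in Ik L/L MDPs, against 7.63 and 7.65 in WT MDPs. The part of these in the differences of *Ly75*, *Clec4a4* and *Clec4n* was not tested.

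The next question was which genes differ between the cells that grew from CDPs and those from MDPs. Over the 4 settings, 5 of the 10 genes were called higher in CDPs, where 4.72% of all genes were, and 0 lower, where 4.01% were. They were *Clec4n*, *Clec4a4*, *Clec4a3*, *Clec4a1* and *Ly75*. *Clec4n* differed most, by 2.32 ± 0.22 (5.01-fold, 8 arrays each, adjusted p = 1.44e-04), with 7.80 to 10.40 in CDPs (median 9.28) and 4.47 to 8.99 in MDPs (median 6.99). *Clec4a4* differed by 1.76 ± 0.15 (adjusted p = 9.41e-05), with 3.64 to 6.82 in CDPs (median 5.18) and 3.16 to 4.16 in MDPs (median 3.52).

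*Clec4a1* and *Clec4a3*, neighbours on the chromosome, had nearly the same stage difference, 1.45 ± 0.24 (2.72-fold, adjusted p = 0.00445) and 1.46 ± 0.23 (2.74-fold, adjusted p = 0.00361). *Clec4a1* had 11.11 and 10.62 in Ik L/L CDPs with DMSO, against 9.09 and 9.34 in Ik L/L MDPs. The WT cells had 10.71 and 9.44 in CDPs, against 8.49 and 8.0 in MDPs. With GSI, *Clec4a1* had 10.96 and 10.38 in Ik L/L CDPs, against 9.74 and 10.04 in MDPs of the same genotype, while the WT cells had 10.89 and 9.59 in CDPs, against 8.38 and 9.07 in MDPs. The stages were thus apart in both genotypes and under both treatments. *Clec4a3* had 10.70 and 10.17 in Ik L/L CDPs with DMSO, against 8.11 and 8.79 in Ik L/L MDPs. The WT cells had 10.25 and 9.08 in CDPs, against 8.06 and 8.13 in MDPs. With GSI, *Clec4a3* had 10.90 and 10.30 in Ik L/L CDPs, against 9.34 and 9.82 in MDPs of the same genotype, while the WT cells had 10.74 and 9.75 in CDPs, against 8.57 and 9.43 in MDPs. In each of the 4 settings *Clec4a3* was higher in both CDP arrays. Together with *Clec4a4* and *Clec4n*, they had CDP arrays wholly above the MDP arrays in each of the 4 settings, beside 2.43% of all genes. Since these paralogs are alike in sequence and the probe sequences were not used here, signal shared between their probe sets cannot be told apart from expression of each gene.

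*Ly75* differed between stages by 0.96 ± 0.10 (adjusted p = 2.92e-04). With both treatments averaged, the difference was 1.81 ± 0.14 in Ik L/L cells (adjusted p = 5.79e-05) and 0.10 ± 0.14 in WT cells (95% interval -0.21 to 0.42, adjusted p = 0.924), and the test of their difference is the one given above. As all WT arrays of *Ly75* lay near the array medians, a small difference between WT stages may be missed. *Clec4n* was called in both genotypes, at 1.64 ± 0.31 in Ik L/L cells (adjusted p = 0.00938) and 3.0 ± 0.31 in WT cells (adjusted p = 0.00152). *Clec4a4* was at 2.59 ± 0.21 in Ik L/L cells (adjusted p = 6.91e-05) and 0.92 ± 0.21 in WT cells (adjusted p = 0.0873). In these averages, chosen after the values were seen, 4 of 10 genes were called higher in Ik L/L CDPs than in Ik L/L MDPs and 1 of 10 in WT CDPs than in WT MDPs, beside 3.87% and 0.677% of all genes.

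Under DMSO alone, 2 of 10 genes were called higher in Ik L/L CDPs than in Ik L/L MDPs, *Clec4a4* (3.16 ± 0.30, adjusted p = 6.19e-04) and *Ly75* (1.62 ± 0.20, adjusted p = 0.00284), beside 1.28% of all genes. In WT cells 0 of 10 were called, beside 0.0953% of all genes, while 5 of 10 had an unadjusted p under 0.05 (limma), where 5.38% of all genes did. *Clec4n* had the largest WT difference, 2.57 ± 0.43 (adjusted p = 0.0922). *Clec12a*, an inhibitory receptor of myeloid cells, ran the other way over the 4 settings, at -0.54 ± 0.18 (adjusted p = 0.116), with a median of 9.10 in CDPs and 9.51 in MDPs. *Clec9a* was at 0.52 ± 0.26, *Clec7a* at 0.32 ± 0.21, *Clec10a* at -0.10 ± 0.14 and *Clec4a2* at -0.01 ± 0.21, none of them called. The plot of stage differences gives all 10 genes.

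**Figure D3:**
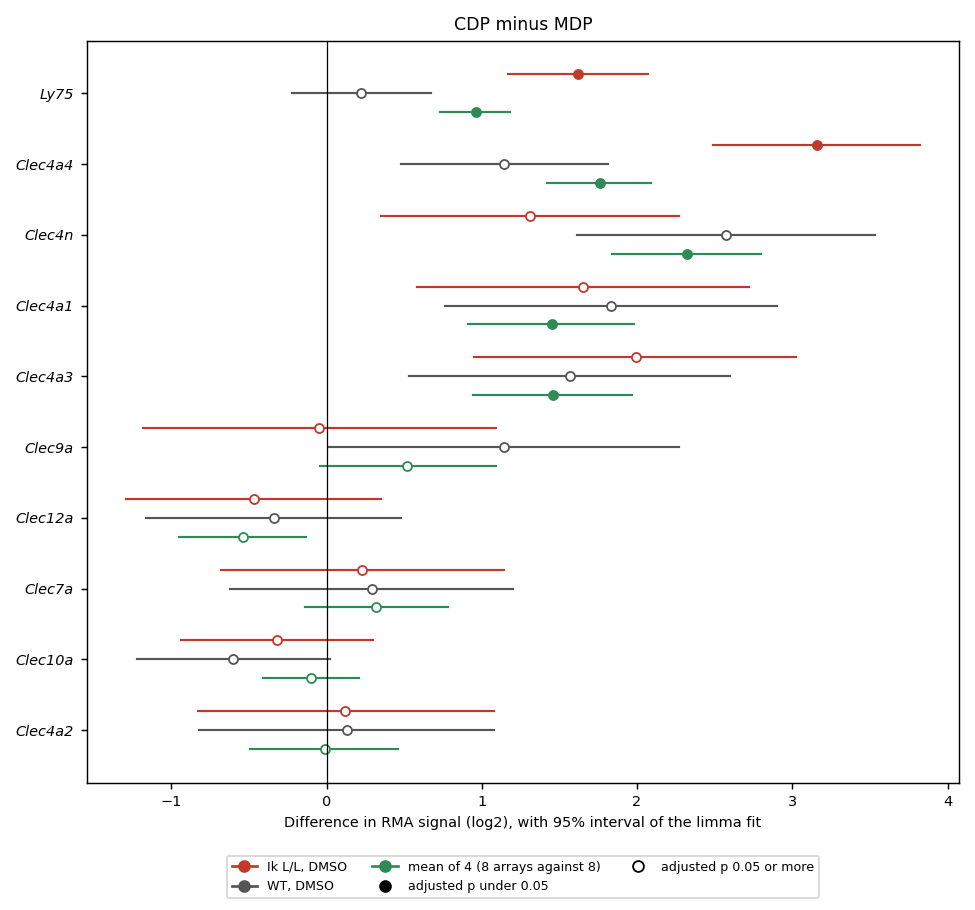
Difference in RMA signal (log2), CDP minus MDP, for each gene in Ik L/L cells with DMSO, in WT cells with DMSO and over the 4 settings (8 arrays against 8), with 95% intervals of the limma fit. Filled points have an adjusted p under 0.05. Over the 4 settings *Ly75*, *Clec4a4*, *Clec4n*, *Clec4a1* and *Clec4a3* are filled, all of them to the right of 0.

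The 2 arrays of a CDP group often differed more than those of an MDP group. Over the 10 genes the median gap between replicates was 0.52 to 0.93 in CDP groups and 0.24 to 0.41 in MDP groups, where all genes had 0.09 to 0.16. In each CDP group, replicate 2 was the higher array for only 3 of the 10 genes. *Clec4a1*, for one, had 10.89 in replicate 1 and 9.59 in replicate 2 of WT CDPs with GSI. The monocyte and macrophage list moved alongside, with 8.54 in replicate 1 and 7.10 in replicate 2 of the same group, and so did *Adgre1*, which encodes F4/80 (9.62 and 7.0). *Clec9a* and *Clec10a* went the other way in all 4 CDP groups, such as *Clec9a* with 4.68 in replicate 1 and 6.10 in replicate 2 of WT CDPs with DMSO. The pDC and neutrophil lists also moved with stage over the 4 settings, where 4.72% of all genes were called higher in CDPs and 4.01% lower. Of the pDC list, 9 of 13 rose in CDPs over MDPs, led by *Siglech*, a pDC lectin-like receptor (2.10, adjusted p = 2.94e-05), and its list mean was 6.04 to 6.69 in CDPs and 5.38 to 5.69 in MDPs. Of the neutrophil list, 4 of 16 fell (*Elane*, *Mpo*, *Ctsg* and *Prtn3*, all granule proteases or peroxidase of early myeloid cells) and 2 rose. The part of these cell markers in the stage differences was not tested.

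GSI was compared with DMSO in each population and over all 4. None of the 10 genes was called in any of these comparisons by limma with the arrays treated as unpaired. Calls with a replicate block are given at the end. The adjusted calls over all genes were 0.00502% higher in Ik L/L CDPs, 0.01% higher in WT CDPs and none in MDPs, and over the 4 populations 0.221% higher and 0.0853% lower. At an unadjusted p under 0.05 there were 2 of 10 in Ik L/L CDPs, where 3.5% of all genes were, 3 of 10 in Ik L/L MDPs (2.62% of all genes), 2 of 10 in WT CDPs (4.1%) and 2 of 10 in WT MDPs (6.77%). Over the 4 populations there were 4 of 10, where 11.4% of all genes were. *Clec9a*, which binds actin filaments exposed by dead cells, had the largest difference, -1.08 ± 0.26 (8 arrays each, adjusted p = 0.127). It had 3.85 and 4.05 in Ik L/L CDPs with GSI, against 4.18 and 5.48 with DMSO. Ik L/L MDPs had 3.48 and 3.67 with GSI, against 4.50 and 5.25 with DMSO. In WT CDPs *Clec9a* had 3.62 and 4.49 with GSI, against 4.68 and 6.10 with DMSO, and in WT MDPs 3.48 and 3.40 with GSI, against 4.02 and 4.48 with DMSO. In each of the 4 populations both arrays with GSI were thus below both with DMSO, which held for 0.572% of all genes.

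*Clec9a* is a dim gene here, with a mean signal at or above that of 41.4% of genes, and its replicates under DMSO differed by up to 1.42. *Clec12a* had a difference of -0.78 ± 0.18 (adjusted p = 0.127), with a median of 8.99 over the 8 arrays with GSI and of 9.62 over the 8 with DMSO. Its arrays did not overlap in 3 of the 4 populations. In a single population, 12.8% to 14.4% of all genes were lower with GSI without overlap. In WT CDPs *Clec12a* had 8.62 and 8.54 with GSI, against 9.57 and 9.51 with DMSO. In Ik L/L CDPs it had 9.14 and 7.83 with GSI, against 9.66 and 9.07 with DMSO, the population in which the arrays overlapped. Without replicate 1 of Ik L/L CDPs with GSI it was called (adjusted p = 0.0295). *Clec4n* was at -0.81 ± 0.22 (adjusted p = 0.171), most of all in WT MDPs (-1.35 ± 0.43, adjusted p = 0.677), and *Clec4a3* ran upward at 0.70 ± 0.23 (adjusted p = 0.285).

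The remaining genes differed by -0.32 to 0.28 over the 4 populations. *Ly75* was at 0.22 ± 0.10 (95% interval 0.00 to 0.45), and the difference between its GSI effects in Ik L/L and in WT cells was 0.04 ± 0.20 (95% interval -0.40 to 0.49). For no gene did the GSI effect differ between the genotypes by limma, with 0 of 10 also at an unadjusted p under 0.05, where 1.6% of all genes were over both stages. For *Clec4a4* in Ik L/L CDPs the difference with GSI was -0.85 ± 0.30 (adjusted p = 1.00), with 6.14 and 5.68 with GSI, against 6.82 and 6.69 with DMSO. These arrays did not overlap, and 14.4% of all genes were lower with GSI in Ik L/L CDPs in this way.

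**Figure D4:**
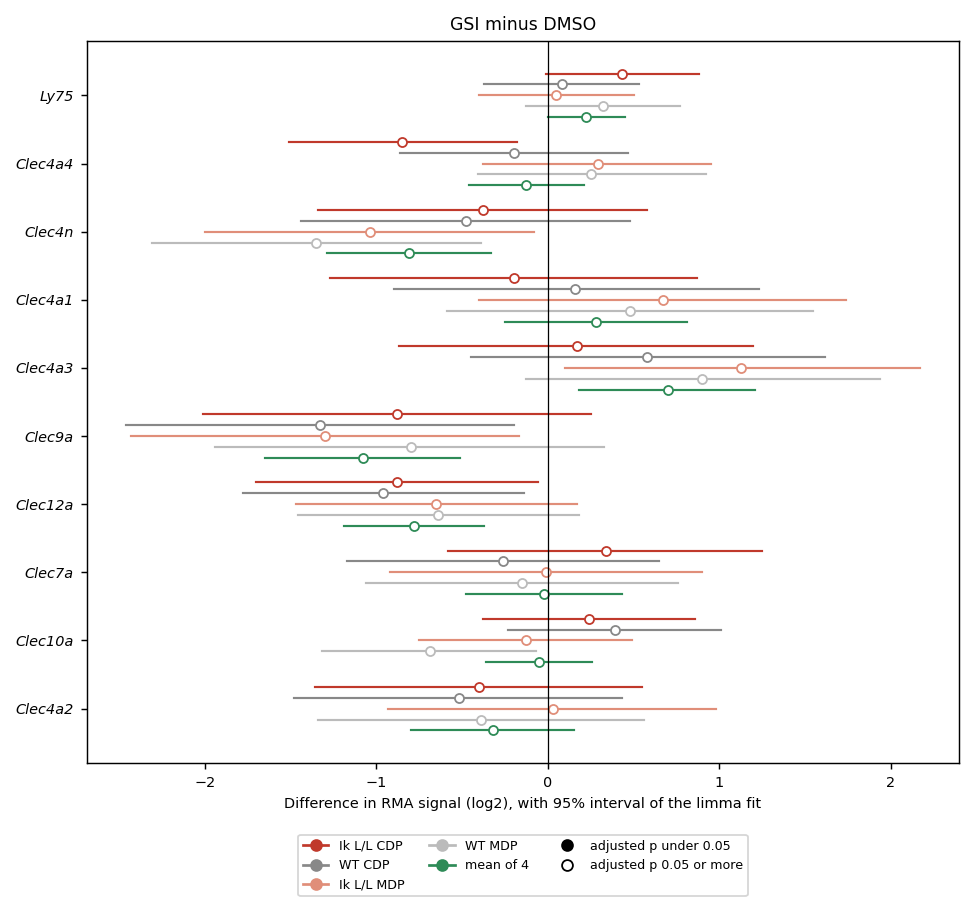
Difference in RMA signal (log2), GSI minus DMSO, for each gene in each of the 4 populations (2 arrays against 2) and over all 4 (8 against 8), with 95% intervals of the limma fit. No point is filled, as no adjusted p was under 0.05. *Clec9a* and *Clec12a* lie left of 0 in all 4 populations.

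Set in order along chromosome 6, the genes fell into 2 clusters, while *Clec10a* and *Ly75* lie on other chromosomes. From *Necap1* to *Vmn2r19*, RefSeq lists *Clec4a1*, *Clec4a3*, *Clec4a4*, *Clec4b1*, *Clec4a2*, *Clec4b2*, *Clec4n*, *Clec4d* and *Clec4e*. The genes between the members are named here for their position, after their values were seen. The stage difference was 1.45, 1.46, 1.76 and 1.22 in the first 4 of these lectin genes (adjusted p = 0.00112 for *Clec4b1*), -0.01 in *Clec4a2* and -0.59 in *Clec4b2* (adjusted p = 0.0205, lower in CDPs), and 2.32 in *Clec4n*. *Clec4d* and *Clec4e*, which encode MCL and Mincle, receptors for mycobacterial cord factor, were not called for stage at 0.63 ± 0.39 and 0.59 ± 0.42, nor for genotype at 1.08 ± 0.39 and 0.52 ± 0.42. The flanking *Necap1* and *Vmn2r19* lay within 0.18 of 0 for genotype, stage and GSI. The other cluster holds *Clec12a*, *Clec12b*, *Clec1b*, *Clec9a*, *Clec1a* and *Clec7a*, of which *Clec12b*, *Clec1b* and *Clec1a* had mean signals of 3.35, 3.29 and 3.73.

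**Figure D5:**
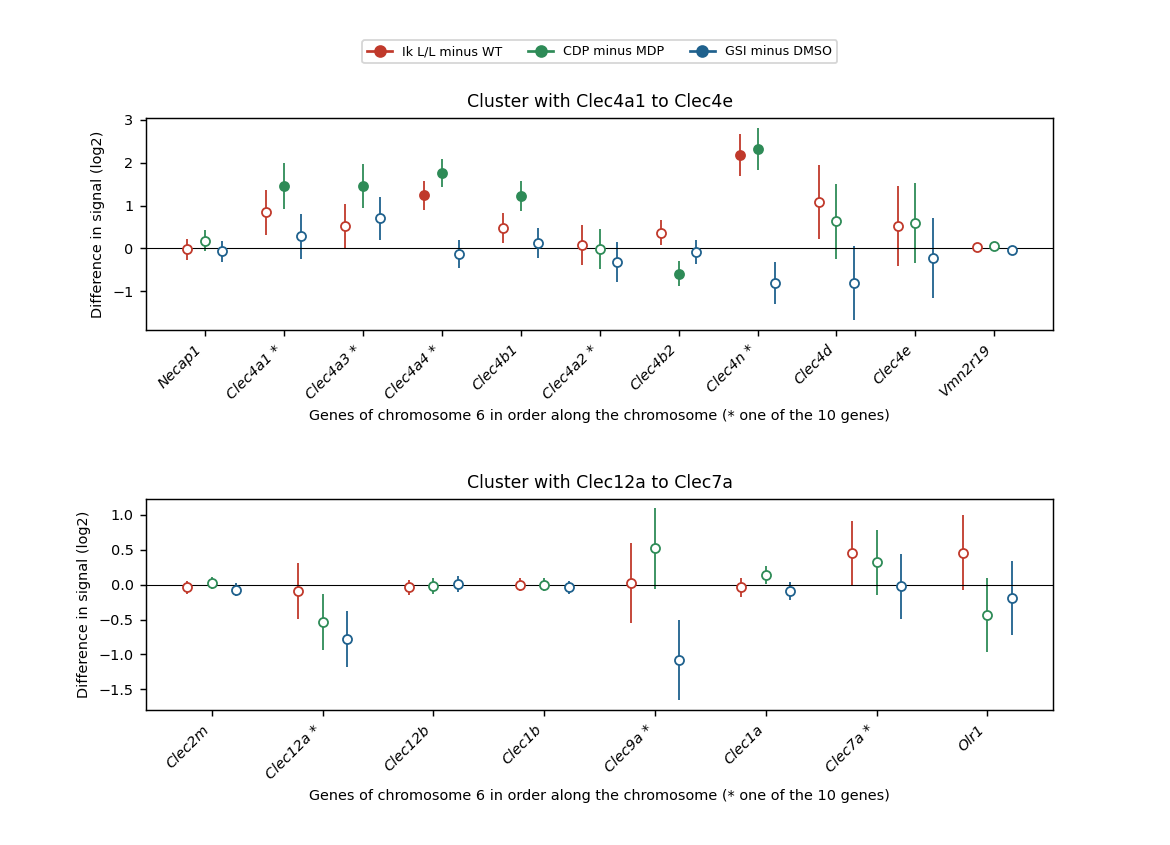
Difference in RMA signal (log2) over the 4 settings for the genes of the 2 lectin clusters of chromosome 6, in chromosomal order and not to scale, for genotype, stage and GSI, with 95% intervals of the limma fit. Filled points have an adjusted p under 0.05. *Clec4a2* lies near 0 between *Clec4b1* and *Clec4b2*, whose stage differences have opposite signs.

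Of 39 other measured C-type lectin genes, 5 rose with genotype over the 4 settings and 1 fell (*Klrb1f*), beside 3.85% and 2.15% of all genes. With stage 7 rose and 6 fell, beside 4.72% and 4.01%. *Mgl2* (CD301b), the paralog of *Clec10a*, had 9.43 to 10.92 in Ik L/L arrays (median 10.45) and 5.38 to 9.02 in WT arrays (median 8.51), a difference of 2.20 ± 0.32 (adjusted p = 0.00279) with no overlap. Its lowest value, 5.38, was replicate 1 of WT CDPs with DMSO, whose other array had 8.13. In *Clec10a* the arrays of the genotypes overlapped, with 7.61 to 8.33 in Ik L/L and 7.28 to 8.41 in WT. *Klrb1b*, an NKR-P1 receptor, rose in CDPs over MDPs by 3.03 ± 0.31 (adjusted p = 2.54e-04), and *Klrk1* (NKG2D) by 2.10 ± 0.19 (adjusted p = 1.10e-04).

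Of 26 measured signalling partners, 2 rose with genotype over the 4 settings, beside 3.85% of all genes. They were the adaptor *Blnk* (0.39 ± 0.07, adjusted p = 0.00762) and the NADPH oxidase subunit *Ncf1* (0.44 ± 0.08, adjusted p = 0.0102). With stage 5 rose, beside 4.72% of all genes, and 0 fell in either, beside 2.15% (genotype) and 4.01% (stage). The stage calls were *Blnk*, *Nfatc2*, *Lat2*, *Malt1* and *Inpp5d*. Neither *Syk* nor *Card9*, the core of Dectin signalling, was called over the 4 settings. Of 21 endocytosis and cross-presentation genes, 3 rose with genotype (*Rab11a*, *Cd36* and *Ctss*), beside 3.85% of all genes. With stage 7 rose and 2 fell, beside 4.72% and 4.01%. *Lgmn*, an endosomal protease, had the lowest p of the list for stage and rose by 2.16 ± 0.22 (adjusted p = 2.44e-04), while *Sec22b*, a SNARE of the cross-presentation pathway, fell by 0.33 (adjusted p = 0.00278). None of the 3 lists had a call for GSI over the 4 populations.

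*Mrc1*, the mannose receptor and a relative of DEC-205, is on the monocyte and macrophage list. It was higher in Ik L/L arrays, with 7.15 to 9.17 (median 7.95) against 4.30 to 8.13 in WT arrays (median 4.75), a difference of 2.57 ± 0.18 (adjusted p = 2.76e-05). With the arrays treated as unpaired, *Mrc1* was also called for GSI, unlike the 10 genes, at 1.32 ± 0.18 (adjusted p = 0.0209, limma). It had 8.13 and 7.55 in WT CDPs with GSI, against 4.6 and 4.91 with DMSO.

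The genes most like a member over the 8 group means, each centred on its own mean, were found by the root mean square difference. For *Ly75*, whose own means had an SD of 1.00, they were *Insl6* and *Gprc5c* (both 0.182), *Nectin1* (0.214), *Stap2* (0.223) and *Ctsk* (0.225). For *Clec4a4*, with an SD of 1.18, they were *Phf11d* (0.176), *Klri1*, *Phlpp1*, *Oasl2* and *Cyria* (0.304 to 0.323). For *Clec9a*, with an SD of 0.64, they were *Dusp6* (0.245), *Ccnd2*, *Ifitm6*, *Tnf* and *Rab7b* (0.321 to 0.355). *Clec7a* varied least of these 4, with an SD of 0.30, and its nearest genes, *Alkbh6*, *Gsdmd*, *Tma16*, *Luzp1* and *Vwa5a*, were within 0.094. The pooled replicate SD of *Clec7a* was 0.46, so its group pattern was within the spread of replicates.

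In order of level, *Ly75* ran from Ik L/L CDPs with GSI (7.26) and with DMSO (6.83) to Ik L/L MDPs with GSI (5.26) and with DMSO (5.21), and then to the 4 WT groups, which lay between 4.41 and 4.73 and within 0.32 of each other. The means of the 2 Ik L/L CDP groups were 0.43 apart and those of the 2 Ik L/L MDP groups 0.05, against a pooled replicate SD of 0.22. The Ik L/L CDP arrays with GSI lay above those with DMSO without overlap, as did those of 19.4% of all genes. *Clec4n* spanned the widest range of group means, 5.36, with an SD of 0.49, and *Clec4a2* the narrowest, 0.52 with an SD of 0.48.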

How the data were processed

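The authors deposited log2 values from RMA (Affymetrix Expression Console 1.4.1). RMA subtracts background, quantile-normalises the 16 arrays and summarises each probe set, so a change shared by most genes is removed. RNA was amplified before labelling. No source used here names a genome build. Of 28188 probe sets, 21789 mapped to 1 symbol, and the one with the highest mean was kept for each of 19938 genes. One limma fit (3.58.1, R 4.3.3) of 8 group means on 16 arrays (8 residual and 2.35 prior degrees of freedom) gave moderated two-sided tests, adjusted by Benjamini-Hochberg over all genes, with a threshold of 0.05. Errors are SEs of this fit, and intervals 95%. The 2 arrays per group limit the precision, and an exact permutation test of 2 against 2 cannot go below p = 0.3333. The genes and lists were chosen with earlier results of these data known. Genes of the other lists were named mostly from the calls with low p, and not all such calls are named. Alternatives were a replicate block, a signal filter, trended robust variances, only the compared groups, and leaving out each array. The fit was tested on simulated data.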

Additional observations from a re-analysis of the deposited data

Results flagged for a closer look

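The genotype difference (Ik L/L minus WT) of *Ly75* was larger in CDPs than in MDPs by a test of the difference itself (limma), by 2.02 with GSI (adjusted p = 0.0233) and by 1.71 over both treatments (adjusted p = 0.00377). The difference with GSI was called in 7 of 16 fits that left out 1 array. With DMSO alone it was 1.4 (adjusted p = 0.247). The same test gave 1.67 for *Clec4a4* over both treatments (adjusted p = 0.0409).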

How the results depend on the processing

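Counts are of the 10 genes called. With only genes above the median signal, which leaves out *Clec4a4* and *Clec9a*, 1 was higher in Ik L/L CDPs with DMSO, 1 with GSI, 1 (*Clec4n*) in Ik L/L MDPs with DMSO and 1 in WT CDPs over MDPs with DMSO, and 1 for the difference of the genotype differences over both treatments. Fitting only the compared groups, which leaves few degrees of freedom, gave 0 in Ik L/L CDPs with DMSO, 0 with GSI, 0 in Ik L/L MDPs with GSI and 0 for the difference of the genotype differences with GSI. Trended robust variances gave 1 (*Clec4n*) in Ik L/L MDPs with DMSO and 1 in WT CDPs over MDPs. The mean over both treatments, added after the data were seen, gave 1, 1 and, for Ik L/L CDPs over MDPs, 4.

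The replicate numbers are not stated to mark the same mouse. Gaps between replicates correlated with r of -0.25 to 0.66 over all 28 pairs of groups, 17 of them over 0.1. These pairs include groups of different genotypes, which cannot share a mouse, so the range cannot decide whether arrays are paired. With the number as a replicate block, 1 (*Clec4n*) was called in Ik L/L MDPs with DMSO, 1 (*Clec4n*) in WT CDPs over MDPs, 1 (*Clec12a*) lower in CDPs over the 4 settings and 2 (*Clec9a*, *Clec12a*) lower with GSI over the 4 populations. Over all genes it moved the calls for GSI over the 4 populations to 176, against 61 without it.

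Leaving out 1 array gave 1 to 2 in Ik L/L CDPs with GSI, 0 to 1 in Ik L/L MDPs with DMSO (*Clec4n*, without either array of WT CDPs with DMSO) and 0 to 1 with GSI, 0 to 1 in WT CDPs over MDPs (*Clec4n*, without replicate 2 of WT CDPs with DMSO), 0 to 1 lower in CDPs over the 4 settings and 0 to 1 lower with GSI (*Clec12a*, both without replicate 1 of Ik L/L CDPs with GSI). For the difference of the genotype differences it gave 0 to 1 with GSI and 1 to 2 over both treatments. No result reversed under these settings, and the causes were not tested. Dim genes such as *Clec9a* and, in MDPs, *Clec4a4* lie near the floor of the arrays, where differences are compressed.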
